A study of Homo sapiens with 6 samples.

Results

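The nuclear genes of mitochondrial respiratory complexes II, III, IV and V, with cytochrome c and 2 heme enzymes, were examined in H1975 cells before and after adaptation to osimertinib (Osi). The set was chosen by gene symbol and held 44 genes of the 27216 rows of the expression table: 4 of complex II, 9 of complex III, CYCS, 11 of complex IV, COX15 and HCCS, and 17 of complex V. H1975 is an established human lung adenocarcinoma line with mutant EGFR, and Osi is a kinase inhibitor directed at mutant EGFR. The 3 parental samples were labelled as 0 h of Osi and the 3 adapted samples as 72 h, both with a stated dose of 1000 nM. The study's list of compounds gave a lower concentration for Osi, and its methods for RNA sequencing stated none. The table headed the parental columns DMSO, and it was not stated whether those cells were untreated or kept in the solvent. All 6 samples came from this 1 line, with the genotype label WT. The labels described removal of dying cells by washing, so the adapted samples held cells that remained attached. The labels also described RNase R, an enzyme that degrades linear RNA, during library preparation, whereas the study's methods described standard sequencing of total RNA. The effect of that step on these values was not tested. The study described its data in general as coming from independent experiments with technical replicates. Whether the 3 samples of each group here came from separate cultures was not stated, and p-values measure the spread between these samples, which may be technical.

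Electrons from succinate enter the respiratory chain at complex II, and electrons carried by ubiquinol pass through complex III to cytochrome c and then to complex IV, which reduces oxygen. Complexes III and IV pump protons across the inner membrane, and complex V, the ATP synthase, uses the returning protons to make ATP. Complex II is encoded wholly in the nucleus, whereas complexes III, IV and V combine nuclear subunits with a few that are encoded in mitochondrial DNA. Heme is needed at several of these steps, and oxidative phosphorylation (OXPHOS) has been studied as an energy source of tumor cells that persist under targeted therapy.

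Values were log2(FPKM + 1), where FPKM is a read count scaled to gene length and library size. The unit was read from the values, since no source used here names it. In 27069 of the 27216 rows, raising 2 to each value and subtracting 1 returned a number with 6 decimals, within 0.001 of the last decimal. In the other 147 rows the 3 values of one group did not, and these 3 values returned to 6 decimals once a single constant had been subtracted. The constant was 0.66 in the adapted columns of 87 rows, 0.65 in the adapted columns of 35 rows and 0.2 in the parental columns of 25 rows. Off this 6-decimal grid were 19 of the 44 members (43.2%), against 1.11% of the 12656 rows tested. The 16 members off the grid in the adapted columns carried 0.66, and UQCRC2, ATP5F1E and ATP5PO carried 0.2 in the parental columns. No source used here states the origin of these constants. Each such member is therefore given as deposited and again with its constant subtracted, and counts are also given for the 25 members on the grid alone.

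The total of the linear values ranged from 375342 to 387753 over the 6 samples, and no read count gives the depth. Genes encoded in mitochondrial DNA held 8.07% to 8.66% of this sum in parental samples and 9.73% to 12.2% in adapted samples. The 7 epithelial line markers lay between 7.08 and 10.6 in every sample. Of these, KRT7 was higher by 1.07, and KRT19 (−0.75), KRT18 (−0.57) and KRT8 (−0.28) were lower in adapted samples. EPCAM, CDH1 and EGFR did not pass an adjusted p of 0.05. Of the lung lineage markers, NKX2-1 was higher by 0.47, NAPSA was lower (−0.81), and SFTPB lay between 0 and 0.29. The immune markers PTPRC and CD3E were at or near 0, while CD68, which many tumor cells also express, lay between 6.22 and 6.27 in parental and between 3.96 and 4.93 in adapted samples. CD79A lay between 0.38 and 0.65 in parental and between 0 and 0.12 in adapted samples. Summed markers of endothelial cells lay between 1.13 and 1.88 FPKM in parental and between 1.49 and 3.50 FPKM in adapted samples. Among them PECAM1 averaged 1.35 and 0.063 FPKM and CDH5 averaged 0.156 and 2.39 FPKM in parental and adapted samples, with no overlap in either, and both were below the level for testing. Those of fibroblasts summed to 3.04 to 3.15 FPKM in parental and 7.61 to 9.19 FPKM in adapted samples, with COL1A1 higher by 1.12 (adjusted p = 7.80e-05), LUM between 0.042 and 0.063 in parental and between 0.53 and 0.73 in adapted samples, and COL1A2 and DCN near 0. The part of these markers and of the mitochondrial share in the results was not tested. In such bulk samples, fewer cells of a kind and less RNA per cell cannot be told apart.

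As deposited, 25 of the 44 members were higher in adapted cells, 6 were lower and 13 did not pass the threshold (limma, adjusted p under 0.05 over all rows). Of all rows tested, 30.7% were higher and 26.2% lower, against 56.8% and 13.6% of the members. The median log2 fold change of the members was 0.39, beside 0.028 over all rows. With the constants subtracted, 20 members were higher and 4 lower (45.5% and 9.09%), against 30.3% and 26% of all rows, and the median was 0.24. Among the 25 members on the grid, 10 were higher and 4 lower (40% and 16%), against 30.1% and 26.3% of all rows on the grid. Their median was −0.013, and it took the opposite sign under quantile normalization (0.045) and under scaling to an equal sum without mitochondrially encoded genes (0.036). The 19 members off the grid had a median of 0.98 as deposited and 0.32 after subtraction. Parental and adapted values did not overlap in 33 of the 44 members, or 28 of 44 after subtraction. Over all 12656 rows tested this was so in 8390 (66.3%), or 8347 after subtraction. On the grid the counts were 16 of 25 members and 8255 of 12515 rows, and these differences were not tested.

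**Figure D1:**
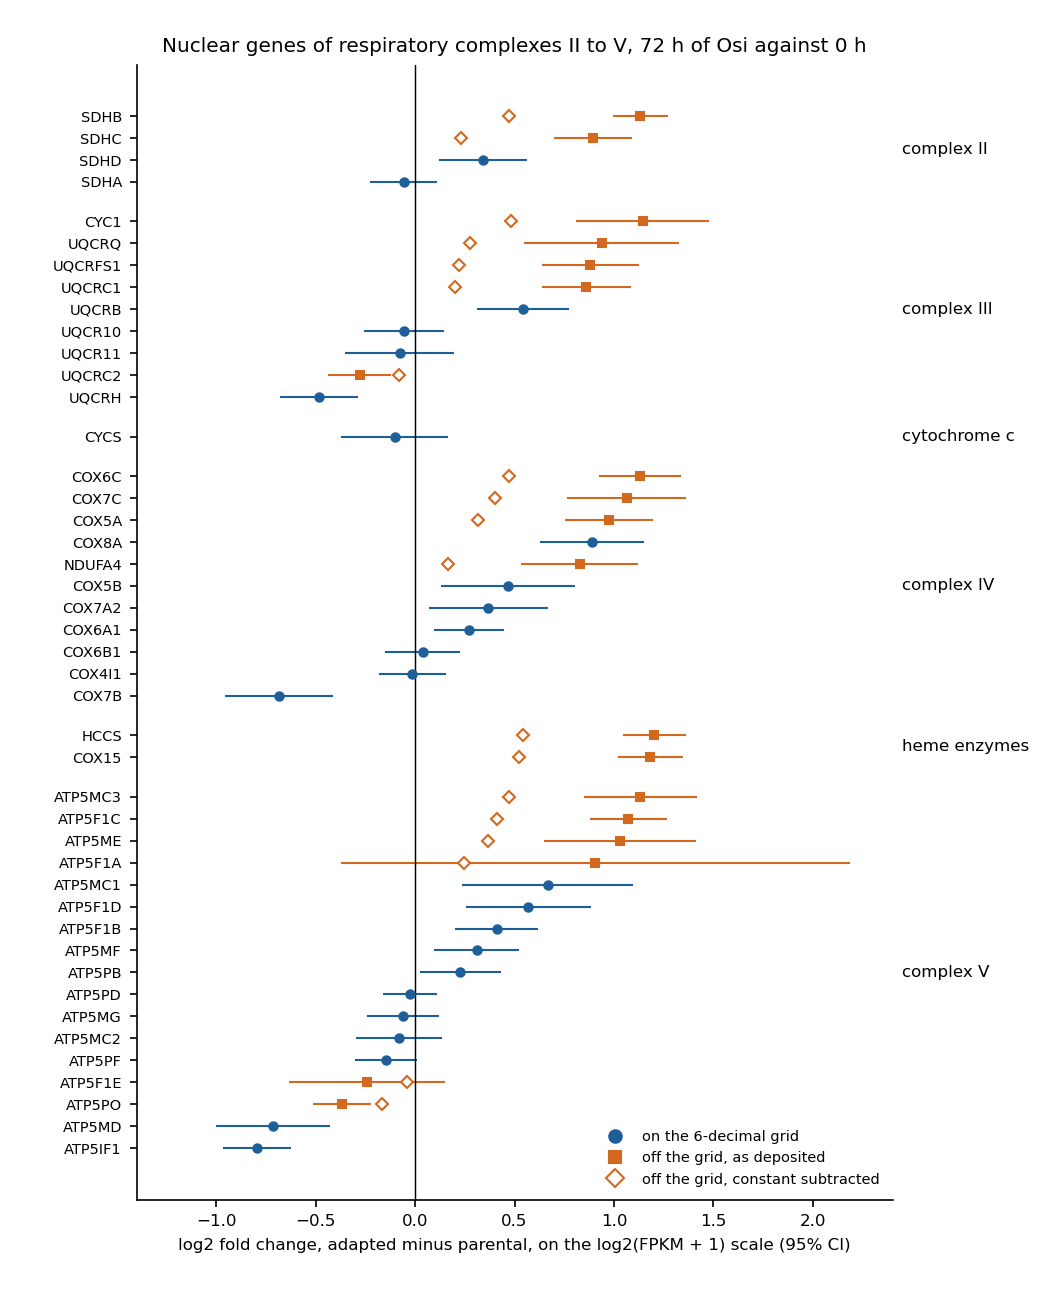
Log2 fold change of each of the 44 members, adapted minus parental, on the log2(FPKM + 1) scale, with its 95% confidence interval (limma, 3 samples a group), grouped by complex. Circles are members on the 6-decimal grid, squares are members off it as deposited, and open diamonds show the latter with the constant subtracted: all 16 members off the grid in the adapted columns lie above 0 before and after subtraction, with a median of 1.05 falling to 0.39.

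The 7 members that lost their call when the constant was subtracted were UQCRC1, UQCRC2, UQCRFS1, UQCRQ, NDUFA4, ATP5PO and ATP5ME. The 10 members off the grid that stayed higher after subtraction were SDHB, SDHC, CYC1, COX5A, COX6C, COX7C, COX15, HCCS, ATP5F1C and ATP5MC3. ATP5F1A and ATP5F1E, both off the grid, passed in neither form. Members on the grid carry no constant. This choice reaches them only through the shared estimate of spread, the set of rows tested and the adjustment over those rows. The 14 that passed were SDHD, UQCRB, UQCRH, COX5B, COX6A1, COX7A2, COX7B, COX8A, ATP5F1B, ATP5F1D, ATP5MC1, ATP5MF, ATP5MD and ATP5IF1.

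**Figure D2:**
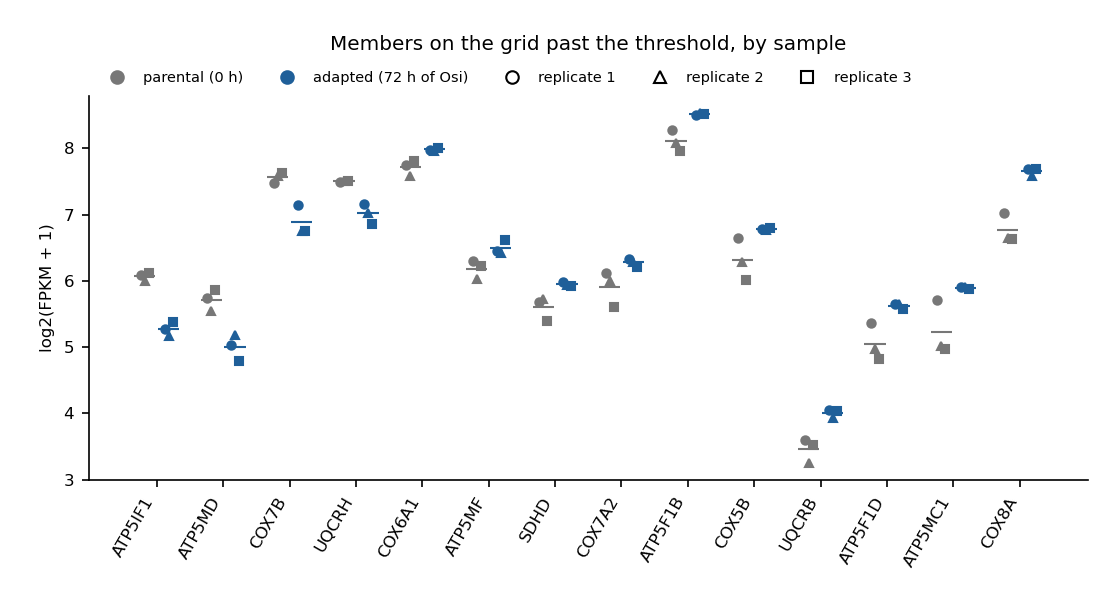
Log2(FPKM + 1) in each sample for the 14 members on the grid that passed the threshold, ordered by fold change from ATP5IF1 (−0.80) to COX8A (0.89). Grey marks parental and blue adapted samples, the marker shape gives the replicate and short lines give the group mean: in none of the 14 do the groups overlap. The 14 were picked by a test on these same samples, so their separation adds no further result. Of all rows tested, 66.3% showed no overlap.

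In complex II, 3 of the 4 genes were higher in adapted cells, with and without subtraction of the constants. This was 75%, against 30.7% of all rows tested as deposited and 30.3% after subtraction. SDHA, the flavoprotein that oxidizes succinate, is on the grid. It measured 6.04, 6.01 and 5.98 in parental samples and 6.07, 5.83 and 5.96 in adapted samples. These overlapped, and the log2 fold change of −0.057 (95% CI −0.23 to 0.11) did not pass the threshold. SDHB, the iron-sulfur subunit that receives those electrons, lies on chromosome 1 (GRCh38, 17018722 to 17054170, minus strand). Its deposited values were 5.31, 5.23 and 5.25 in parental samples and 6.33, 6.43 and 6.42 in adapted samples. The difference was 1.13 ± 0.059 (SE, adjusted p = 1.07e-05), and 0.47 (adjusted p = 4.79e-04) with 0.66 subtracted from the adapted values.

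SDHC and SDHD anchor complex II in the membrane and hold its ubiquinone site. SDHC measured 3.97, 3.76 and 3.70 in parental samples and, as deposited, 4.75, 4.69 and 4.66 in adapted samples. Its log2 fold change of 0.89 became 0.23 (95% CI 0.036 to 0.43, adjusted p = 0.0472) after subtraction, close to the threshold. SDHD, on the grid, measured 5.69, 5.73 and 5.39 in parental samples and 5.99, 5.94 and 5.92 in adapted samples. It rose by 0.34 ± 0.094 on the log2 scale (adjusted p = 0.0169), with every adapted sample above every parental one. SDHD shares 26 exon bases with TIMM8B on the opposite strand, a gene off the grid that lay between 4.38 and 4.55 in parental samples and, in adapted samples, between 5.21 and 5.54 as deposited and between 4.55 and 4.88 with 0.66 subtracted. Whether the reads were counted by strand was not stated.

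In complex III, 5 of 9 genes were higher and 2 lower as deposited, and 2 were higher and 1 lower after subtraction. The shares were 55.6% and 22.2%, then 22.2% and 11.1%. Over all rows tested they were 30.7% and 26.2%, then 30.3% and 26%. The members that lost their call included both core proteins and the Rieske subunit. CYC1, cytochrome c1, which passes electrons to cytochrome c, measured 5.79, 5.24 and 5.29 in parental samples and 6.64, 6.53 and 6.59 in adapted samples as deposited. It was higher by 1.14 (adjusted p = 4.66e-04), and by 0.48 (adjusted p = 0.0223) after subtraction. Parental replicate 1 stood above the other parental samples, and the groups stayed apart in both forms.

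UQCRC1 and UQCRC2 are the core proteins on the matrix side. UQCRC1 measured 5.94, 5.72 and 5.57 in parental samples and 6.64, 6.56 and 6.61 in adapted samples, a difference of 0.86 (adjusted p = 2.66e-04). With 0.66 subtracted the difference was 0.20 (95% CI −0.022 to 0.42, adjusted p = 0.108) and the groups overlapped. UQCRC2 measured 5.69, 5.78 and 5.68 in parental and 5.47, 5.51 and 5.34 in adapted samples, a difference of −0.28 (adjusted p = 0.0103). With 0.2 subtracted from the parental values this was −0.079 (95% CI −0.24 to 0.081, adjusted p = 0.355), and without parental replicate 2 the deposited values gave an adjusted p of 0.0518. The 2 core proteins therefore differed in direction as deposited, and neither passed after subtraction.

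UQCRFS1, the Rieske iron-sulfur protein, measured 4.16, 4.03 and 3.75 in parental samples and 4.89, 4.84 and 4.84 in adapted samples. Its deposited difference of 0.88 (adjusted p = 3.65e-04) became 0.22 (adjusted p = 0.109). UQCRQ, a small subunit near the ubiquinone-binding region, measured 5.62, 5.56 and 4.97 in parental samples and 6.34, 6.22 and 6.40 in adapted samples. Parental replicate 3 stood below the other two, and the difference of 0.94 (adjusted p = 0.00241) became 0.28 (95% CI −0.11 to 0.67, adjusted p = 0.188).

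On the grid, complex III held 1 gene that rose and 1 that fell, each 25% of its 4 members there. Of all rows on the grid, 30.1% were higher and 26.3% lower. UQCRB, which borders the ubiquinone site, measured 3.60, 3.26 and 3.52 in parental samples and 4.05, 3.93 and 4.03 in adapted samples, and rose by 0.54 ± 0.098 (SE, adjusted p = 0.00267). UQCRH, the acidic hinge protein that helps dock cytochrome c1 with cytochrome c, fell. It was 7.50 in each parental sample to 2 decimals and 7.17, 7.02 and 6.86 in adapted samples, a change of −0.48 ± 0.084 (SE, adjusted p = 0.00228). Its near copy UQCRHL lay between 1.37 and 1.61 in all samples. UQCR10 and UQCR11, the smallest subunits, gave log2 fold changes of −0.054 and −0.076, with overlapping groups. CYCS, the mobile cytochrome c, measured 5.24, 5.22 and 5.17 in parental and 5.29, 5.19 and 4.84 in adapted samples, a difference of −0.10 (95% CI −0.37 to 0.17) that did not pass the threshold.

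In complex IV, 8 of 11 genes were higher and 1 lower as deposited, and 7 were higher and 1 lower after subtraction. The shares were 72.7% and 9.09%, then 63.6% and 9.09%. Over all rows tested they were 30.7% and 26.2%, then 30.3% and 26%. Among its 7 members on the grid, 4 were higher and 1 lower, and their median log2 fold change was 0.27. These were 57.1% and 14.3%, against 30.1% and 26.3% of all rows on the grid. COX8A, a small membrane-spanning subunit on chromosome 11 (63974607 to 63976543, plus strand), showed the largest rise of any member on the grid. It measured 7.02, 6.64 and 6.64 in parental samples and 7.68, 7.59 and 7.69 in adapted samples, a rise of 0.89 ± 0.11 (SE, adjusted p = 4.69e-04). In linear terms its mean was 109 FPKM in parental and 200 FPKM in adapted samples. AP000721.1, which shares 34.5% of its exon bases, was at or near 0 in every sample.

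COX7B, another small membrane-spanning subunit, moved the other way. It measured 7.48, 7.59 and 7.63 in parental samples and 7.14, 6.75 and 6.75 in adapted samples, a fall of −0.69 ± 0.12 (SE, adjusted p = 0.00197). COX4I1, the largest nuclear subunit and the most abundant member of complex IV, measured 8.07, 7.99 and 8.11 in parental and 8.14, 7.97 and 8.02 in adapted samples. Its difference of −0.013 had a 95% CI of −0.18 to 0.16 and took the opposite sign under quantile normalization (0.13). COX6B1, on the intermembrane side, likewise gave 0.038 (95% CI −0.15 to 0.22).

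COX5B, the zinc-binding subunit, measured 6.64, 6.29 and 6.02 in parental samples and 6.79, 6.77 and 6.79 in adapted samples, and rose by 0.47 (adjusted p = 0.0266). COX7A2 measured 6.12, 5.99 and 5.61 in parental samples and 6.33, 6.29 and 6.22 in adapted samples, and rose by 0.37 (adjusted p = 0.0405). COX6A1 measured 7.75, 7.58 and 7.80 in parental samples and 7.98, 7.96 and 8.01 in adapted samples, and rose by 0.27 (adjusted p = 0.0178). These calls were close to the limit. COX5B lost its call when parental replicate 2 or 3, or adapted replicate 2 or 3, was left out (adjusted p of 0.0628 to 0.0774). COX7A2 lost its call when any sample other than parental replicate 1 was left out (adjusted p of 0.0641 to 0.098), and COX6A1 without parental replicate 2 (adjusted p = 0.078).

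Off the grid, the 4 complex IV genes differed by 0.83 to 1.13 as deposited and by 0.17 to 0.47 after subtraction. COX6C measured 4.97, 5.18 and 4.85 in parental samples and 6.15, 6.13 and 6.10 in adapted samples, a difference of 1.13 (adjusted p = 5.90e-05) that became 0.47 (adjusted p = 0.00313). COX7C measured 6.67, 6.66 and 6.22 against 7.51, 7.57 and 7.67, a difference of 1.06 that became 0.40 (adjusted p = 0.0294). COX5A, the matrix-side partner of COX5B, measured 5.55, 5.25 and 5.21 against 6.31, 6.32 and 6.31. Its difference of 0.98 became 0.32 (adjusted p = 0.0236). NDUFA4, a complex IV subunit once assigned to complex I, measured 5.11, 5.09 and 5.19 against 6.14, 6.07 and 5.66, and its 0.83 became 0.17 (95% CI −0.13 to 0.46, adjusted p = 0.288).

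The 2 heme enzymes were both off the grid in the adapted columns and both stayed higher after subtraction. HCCS, which attaches heme to cytochromes c and c1, measured 3.63, 3.81 and 3.75 in parental samples and 4.91, 4.91 and 4.98 in adapted samples. Its difference of 1.20 (adjusted p = 1.56e-05), the largest of all 44 members as deposited, became 0.54 (95% CI 0.38 to 0.71, adjusted p = 5.34e-04). COX15, which makes heme A for complex IV, measured 4.29, 4.27 and 4.12 in parental samples and 5.44, 5.45 and 5.34 in adapted samples. Its difference of 1.18 became 0.52 (95% CI 0.36 to 0.69, adjusted p = 6.88e-04). These were the largest subtracted changes among the 19 members off the grid, and both groups stayed apart.

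In complex V, 7 of 17 genes were higher and 3 lower as deposited, and 6 were higher and 2 lower after subtraction. The shares were 41.2% and 17.6%, then 35.3% and 11.8%. Over all rows tested they were 30.7% and 26.2%, then 30.3% and 26%. Among the 11 complex V members on the grid, 4 were higher and 2 lower (36.4% and 18.2%), against 30.1% and 26.3% of all rows on the grid. The 5 genes of the F1 head held 3 that were higher (60%) and none that was lower. ATP5F1B, the catalytic beta subunit and the most abundant member, measured 8.27, 8.07 and 7.96 in parental samples and 8.51, 8.52 and 8.51 in adapted samples. It rose by 0.41 ± 0.089 (SE, adjusted p = 0.00606), from a mean of 275 to 365 FPKM. ATP5F1D, the delta subunit of the central stalk, measured 5.37, 4.97 and 4.82 against 5.64, 5.65 and 5.58 and rose by 0.57 (adjusted p = 0.00866). ATP5F1C, the gamma subunit that turns inside the head, measured 5.55, 5.35 and 5.27 against 6.42, 6.47 and 6.50, a deposited difference of 1.07 (adjusted p = 5.82e-05) that became 0.41 (adjusted p = 0.00441).

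ATP5F1A, the alpha subunit that alternates with beta in the head, was the most variable member. It measured 5.72, 5.67 and 6.95 in parental samples and, as deposited, 7.68, 7.57 and 5.82 in adapted samples. Parental replicate 3 and adapted replicate 3 each stood apart from their own group and towards the other, so the groups overlapped. The difference of 0.91 ± 0.55 (SE, adjusted p = 0.191) did not pass the threshold, nor did the subtracted difference of 0.25 (95% CI −1.03 to 1.53). Without adapted replicate 3 the deposited difference was 1.51 (adjusted p = 0.02). ATP5F1E, the epsilon subunit, measured 3.89, 3.95 and 4.05 against 3.96, 3.89 and 3.31, with a difference of −0.24 that became −0.042. Neither passed the threshold, and adapted replicate 3 was again the low sample of its group.

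The 4 genes of the peripheral stalk, which holds the head still, showed no rise past the threshold. ATP5PO, the OSCP subunit that caps the stalk, measured 6.50, 6.57 and 6.56 in parental samples and 6.26, 6.12 and 6.14 in adapted samples. It was lower by −0.37 (adjusted p = 0.0019) as deposited, and the difference was −0.17 (95% CI −0.31 to −0.024, adjusted p = 0.0502) with 0.2 subtracted from the parental values. ATP5PB gave 0.23 (adjusted p = 0.0575), ATP5PD −0.025 and ATP5PF −0.14, none past the threshold. ATP5PB passed when the table was scaled without mitochondrially encoded genes (0.28, adjusted p = 0.0318) and without parental replicate 1 (0.29, adjusted p = 0.0426).

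ATP5MC1, ATP5MC2 and ATP5MC3 encode the same mature c subunit of the proton-driven ring, each with its own import sequence. ATP5MC1, on the grid, measured 5.70, 5.01 and 4.98 in parental samples and 5.91, 5.91 and 5.87 in adapted samples. It rose by 0.67 ± 0.18 (SE, adjusted p = 0.0167), a call lost without parental replicate 2 or 3 or adapted replicate 2 (adjusted p of 0.0522 to 0.0607). ATP5MC2, also on the grid, measured 7.14, 7.03 and 7.16 against 6.86, 7.02 and 7.19, a difference of −0.081 (95% CI −0.30 to 0.14). ATP5MC3, off the grid, measured 4.41, 3.997 and 3.97 against 5.31, 5.24 and 5.22, and its difference of 1.13 (adjusted p = 2.24e-04) became 0.47 (adjusted p = 0.0126).

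As a share of the summed FPKM of these 3 genes, ATP5MC2 held 66.2%, 73.7% and 75.8% in parental samples and 54.1%, 57.3% and 60.8% in adapted samples. With the constant of ATP5MC3 subtracted, the adapted shares were 58.1%, 61.1% and 64.4%, still below every parental share. ATP5MC1 held 19.5% ± 4.2 (SD, n = 3) in parental and 26.0% ± 1.8 (SD, n = 3) in adapted samples, or 27.8% ± 2.1 after subtraction. As deposited the groups overlapped for ATP5MC1 (24.2% in parental replicate 1, 24.1% in adapted replicate 3, exact two-sided permutation p = 0.2), and after subtraction they did not (p = 0.1). The exact two-sided permutation test gave p = 0.1 for the share of ATP5MC2 in either form, the smallest value that 3 samples against 3 allow. ATP5MC2 itself did not pass the threshold, while ATP5MC1 and ATP5MC3 were called higher in these same samples. All 3 genes enter the sum, so the test of this share adds no independent result.

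The 2 largest falls among all members were those of ATP5IF1 and ATP5MD. ATP5IF1, the inhibitor that stops the enzyme from running in reverse, lies on chromosome 1 (28236109 to 28246906, plus strand). It measured 6.09, 5.996 and 6.12 in parental samples and 5.27, 5.16 and 5.38 in adapted samples, a fall of −0.80 ± 0.073 (SE, adjusted p = 1.19e-04). ATP5MD, also named DAPIT, a small membrane subunit linked to the pairing of ATP synthase complexes, measured 5.74, 5.54 and 5.86 against 5.03, 5.18 and 4.78, a fall of −0.71 ± 0.12 (SE, adjusted p = 0.00203). Both are on the grid, and in both every adapted sample lay below every parental sample.

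The level of ATP5IF1 relative to the beta subunit it binds was 0.217, 0.234 and 0.275 in parental samples and 0.104, 0.0948 and 0.111 in adapted samples. The means were 0.242 ± 0.030 and 0.103 ± 0.0083 (SD, n = 3), and the groups did not overlap (exact two-sided permutation p = 0.1, the smallest possible here). ATP5IF1 fell and ATP5F1B rose without overlap in these same samples, so the ratio had to separate and its test adds no further result. Both genes are on the grid, so no constant enters this ratio.

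**Figure D3:**
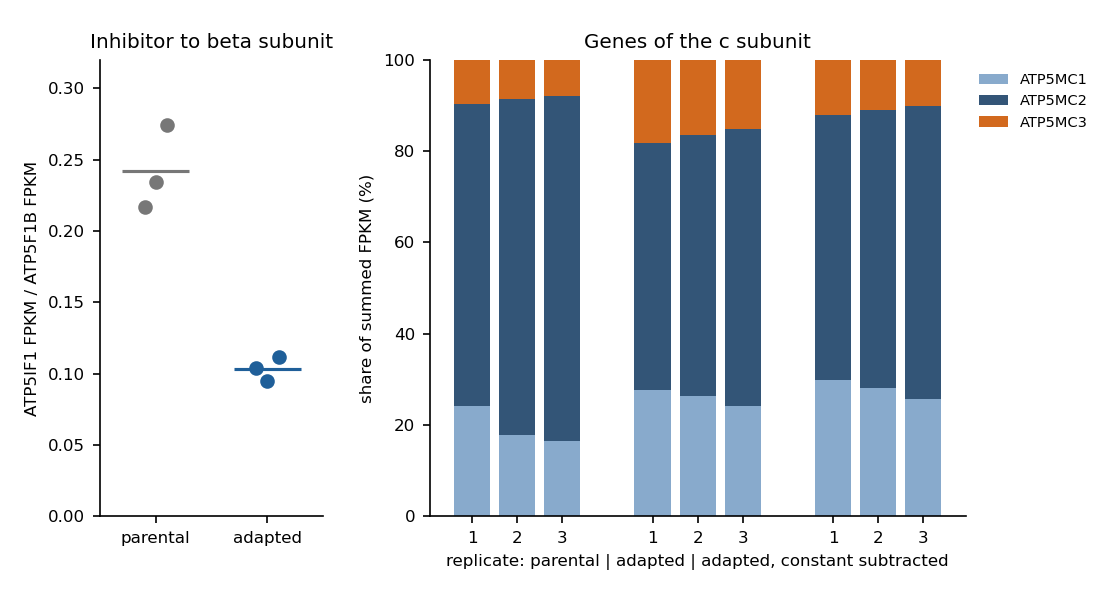
Left, ATP5IF1 FPKM divided by ATP5F1B FPKM in each sample, with lines at the group means of 0.242 (parental) and 0.103 (adapted). Right, percent of the summed FPKM of the 3 c-subunit genes held by each gene in each sample, with the adapted samples shown as deposited and with the constant of ATP5MC3 subtracted: the share of ATP5MC2 is at least 66.2% in parental samples and at most 64.4% in adapted samples. The level of ATP5MC2 itself did not pass the threshold.

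The other membrane subunits of complex V moved less or rested on the constant. ATP5MF, subunit f, measured 6.30, 6.03 and 6.22 against 6.45, 6.41 and 6.62 and rose by 0.31 (adjusted p = 0.0218), a call lost without parental replicate 2 or 3 or adapted replicate 3 (adjusted p of 0.0524 to 0.0812). ATP5ME, subunit e, measured 4.45, 4.20 and 4.02 against 5.04, 5.15 and 5.58, and its deposited difference of 1.03 (adjusted p = 0.00143) became 0.37 (adjusted p = 0.0891). ATP5ME shares 579 exon bases, 61.6% of its total, with MYL5 on the opposite strand, and MYL5 lay between 2.26 and 2.47 in parental and between 2.69 and 2.84 in adapted samples. ATP5MG, subunit g, gave −0.061 (95% CI −0.24 to 0.12).

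The spread between replicates of the members is described next, a pattern chosen after the values were seen. The median SD over 3 samples was 0.14 in parental and 0.0602 in adapted samples for the 44 members. For the 5169 rows whose mean lay within the members' range (3.73 to 8.31), the medians were 0.0444 and 0.118. The parental SD exceeded the adapted SD in 26 members (59.1%) and in 16.1% of those rows. The 37 nuclear genes of complex I leaned the same way more weakly, with medians of 0.115 and 0.101 and a larger parental SD in 48.6%. The parental SD was the larger in 22 of the 25 members called higher and in all 10 of those on the grid, against 20.5% of the 1596 rows in the range that were called higher. It was the larger in none of the 6 members called lower. Among the 11 members on the grid that were not called it was the larger in 4 (36.4%), with medians of 0.0679 in parental and 0.0974 in adapted samples. Subtracting a constant leaves every SD unchanged. Parental replicate 1 was the highest parental sample in 23 of 44 members, against 40.3% of the rows in the range, and parental replicate 3 the lowest in 22, against 43.2%, and these differences were not tested. COX5B (SD 0.313 against 0.0141), ATP5MC1 (0.409 against 0.0216) and COX5A (0.186 against 0.0058) were among the clearest cases.

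**Figure D4:**
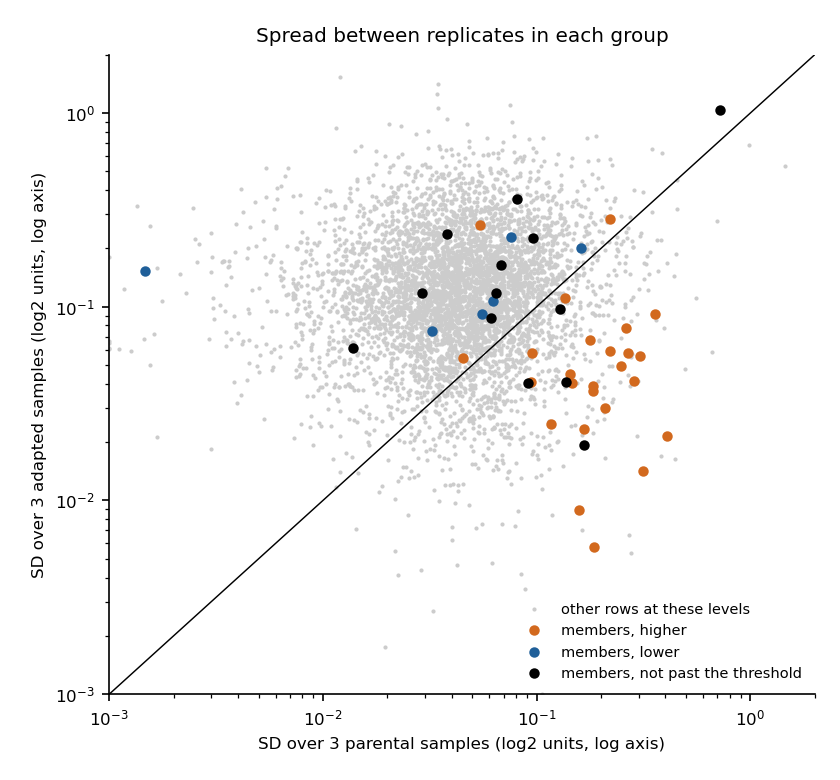
SD over the 3 parental samples (horizontal) and over the 3 adapted samples (vertical) in log2 units, both axes logarithmic, for the 44 members and for the other rows whose mean lay within the members' range, with a line where both are equal. Most grey rows lie above the line, while 22 of the 25 members called higher lie below it and the 6 members called lower lie above it.

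Per length, the members of one complex were not present at equal levels. In complex III, UQCRH was the highest at 180 FPKM and UQCRB the lowest at 10.1 FPKM in parental cells, a 17.9-fold range that was 8.57-fold in adapted cells, with both genes on the grid. In complex V the range ran from ATP5F1B down to ATP5F1E and was 18.8-fold in parental samples as deposited, 21.8-fold with the constant of ATP5F1E subtracted, and 29.3-fold in adapted samples. In complex II, SDHA was the highest in parental samples and SDHB in adapted samples as deposited. After subtraction SDHA was the highest in both groups, at 63.5 and 61.1 FPKM.

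Together the 44 members held 0.823%, 0.769% and 0.776% of the summed FPKM in parental samples and 0.9996%, 0.998% and 0.964% in adapted samples. The means were 0.789% ± 0.029 and 0.987% ± 0.020 (SD, n = 3). With the constants subtracted the adapted mean was 0.880% ± 0.014 beside a parental mean of 0.784% ± 0.030, and for the members on the grid the means were 0.596% ± 0.023 and 0.641% ± 0.0028. In each form the groups did not overlap (exact two-sided permutation p = 0.1, the smallest possible). The share of complex III was 0.119% in parental and 0.143% in adapted samples as deposited, and 0.118% and 0.115% after subtraction, where the groups overlapped (exact permutation p = 0.6). After subtraction the parental and adapted shares were 0.0423% and 0.0503% for complex II and 0.308% and 0.357% for complex IV. For complex V they were 0.299% and 0.337%. In each of these the groups did not overlap (exact permutation p = 0.1).

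Of the subunits of complexes III to V that mitochondrial DNA encodes, 3 of 6 were higher in adapted cells and none was lower. This was 50% higher, against 30.7% of all rows tested. MT-CO3 rose by 0.76 (adjusted p = 0.00201), MT-ATP6 by 0.64 (adjusted p = 0.00947) and MT-CYB by 0.61 (adjusted p = 0.00667), all on the grid. MT-CO1, the catalytic core of complex IV, and MT-CO2 gave 0.20 and 0.16, neither past the threshold. Of 34 assembly factors tested, 7 were higher and 7 lower as deposited (20.6% each), and 6 and 7 after subtraction (17.6% and 20.6%). Over all rows tested the shares were 30.7% and 26.2%, then 30.3% and 26%. COX17, a copper chaperone, was off the grid, and its 1.28 became 0.62 (adjusted p = 0.00578). COX11, which delivers copper to complex IV, was also off the grid, and its 0.68 became 0.019 (adjusted p = 0.903). COX10, the enzyme just before COX15 in heme A synthesis, is on the grid and rose by 0.52. It measured 3.49, 3.39 and 3.42 in parental and 3.97, 3.94 and 3.94 in adapted samples. SDHAF4, an assembly factor of complex II, fell by 0.80, CMC2 by 0.67 and CMC1 by 0.59 on the log2 scale, all on the grid.

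The tissue-restricted second isoforms COX4I2, COX6A2, COX7A1, COX7B2 and COX8C were at or near 0 in all samples. COX6B2 lay between 0.42 and 0.58 in parental and between 0.22 and 0.39 in adapted samples, below the level for testing. COX7A2L, a factor that joins complexes III and IV, was off the grid in the parental columns, and its −0.36 became −0.16 (adjusted p = 0.0453). Of 8 tested nuclear regulators of respiratory genes none was higher and 2 were lower (25%), against 30.7% and 26.2% of all rows tested. GABPB1, the partner of GABPA, fell by 0.32 (adjusted p = 0.00426) and PPRC1 by 0.32 (adjusted p = 0.0402), while NRF1 (−0.19), GABPA (−0.14), ESRRA (−0.36) and TFAM (−0.076) did not pass the threshold. PPARGC1A lay between 0 and 0.14. Among 37 nuclear genes of complex I, 14 were higher and 3 lower as deposited (37.8% and 8.11%), with 13 off the grid. After subtraction 9 were higher and 3 lower (24.3% and 8.11%). On the grid, 3 of 24 complex I genes were higher (12.5%), beside 10 of the 25 members of complexes II to V (40%). Of all rows on the grid, 30.1% were higher. The difference between complex I and the members was not tested.

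Promoters of 36 of the 44 members were matched by symbol in a RefSeq table (GRCh38.p14) of 300 bases, 250 before and 50 after the transcription start. Those of SDHC, UQCRB, CYC1, COX6C, ATP5F1B, ATP5F1D, ATP5MC3 and ATP5MF were not used here. Motifs were searched on both strands as exact letters. The ETS (GABPA) motif ACTTCCGG stood in 10 of 36 member promoters (27.8%), against 4.14% of all 35116 promoters and 9.54% of the 9334 tested rows with a promoter. The NRF1 motif GCGCATGCG stood in 6 (16.7%, against 1.92% and 3.90%) and the YY1 motif AAGATGGCG in 3 (8.33%, against 1.75% and 4.26%). The TATA motif TATAAA stood in 3 (8.33%, against 11.5% and 5.30%). The median GC content of the 36 member promoters was 61.5%, beside 58.7% over all promoters. The ETS motif occurred in members that rose (COX8A, COX5B, SDHD), fell (UQCRH, ATP5MD) and did not pass the threshold (UQCR11, ATP5PD), and in COX15, HCCS and UQCRQ, which are off the grid.

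The 250 bases before the start are shown for the member on the grid with the largest rise (COX8A, chr11:63974370-63974619, plus strand), for the complex II gene that holds both ETS and NRF1 motifs (SDHD, chr11:112086623-112086872, plus strand) and for the pair of members with the largest falls (ATP5MD, chr10:103396476-103396725, minus strand, and ATP5IF1, chr1:28235874-28236123, plus strand). Each reads 5′ to 3′ on the strand of its gene. Capitals mark the ETS motif, in ATP5MD on the other strand, and in SDHD also the NRF1 motif, which matches on both strands in overlapping positions. ATP5IF1 holds none of the 4 motifs in this window.
COX8A: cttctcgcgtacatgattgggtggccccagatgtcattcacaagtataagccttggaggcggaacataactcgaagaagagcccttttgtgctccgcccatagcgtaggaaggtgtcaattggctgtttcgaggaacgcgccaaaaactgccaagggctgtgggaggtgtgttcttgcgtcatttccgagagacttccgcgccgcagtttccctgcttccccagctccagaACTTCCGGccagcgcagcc
SDHD: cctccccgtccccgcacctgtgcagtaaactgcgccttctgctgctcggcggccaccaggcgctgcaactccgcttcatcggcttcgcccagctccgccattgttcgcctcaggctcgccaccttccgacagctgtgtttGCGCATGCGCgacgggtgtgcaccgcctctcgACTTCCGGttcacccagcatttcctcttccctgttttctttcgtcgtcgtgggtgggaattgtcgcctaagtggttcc
ATP5MD: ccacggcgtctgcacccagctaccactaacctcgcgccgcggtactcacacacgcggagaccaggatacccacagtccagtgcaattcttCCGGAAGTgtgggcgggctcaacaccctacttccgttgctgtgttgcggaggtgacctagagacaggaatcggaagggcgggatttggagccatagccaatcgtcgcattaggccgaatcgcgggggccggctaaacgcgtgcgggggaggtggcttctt
ATP5IF1: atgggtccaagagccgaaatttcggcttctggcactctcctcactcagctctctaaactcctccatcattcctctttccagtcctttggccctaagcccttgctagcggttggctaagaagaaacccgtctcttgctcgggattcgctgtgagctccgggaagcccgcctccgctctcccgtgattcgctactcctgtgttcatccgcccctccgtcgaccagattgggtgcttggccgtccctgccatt
COX8A, which rose by 0.89, and ATP5MD, which fell by 0.71 on the log2 scale, thus both carry the ETS letters, and a match of letters does not show that a factor binds there.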

How the data were processed

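The authors sequenced RNA of 3 parental and 3 adapted samples and deposited 1 table of log2 values per gene and sample. Per the labels' processing notes, hg38, STAR, Bowtie2 2.1.0 and edgeR were used, with no role stated. The quantifier and annotation are not given in the sources used here, nor is read depth, so no counting error can be given. Groups followed the sample titles. Rows with a mean log2 value of at least 1 (12656) were tested with limma 3.58.1 (R 4.3.3, lmFit and eBayes with trend, two-sided, unpaired), with Benjamini-Hochberg adjustment over all of them and a threshold of 0.05. Every value printed is as deposited unless a subtracted constant is stated. Constants were searched in steps of 0.01 up to 0.99. On data simulated for this comparison (12656 rows), 86.5% of 200 rows changed by 1 log2 unit were called and 3.35% of calls were false. The simulation gave both groups of a row the same SD and changed only these 200 rows. In the data, the median SDs over rows within the members' range were 0.0444 (parental) and 0.118 (adapted). Of all rows tested, 30.7% were called higher and 26.2% lower. The simulated rates therefore need not hold for the data or for smaller changes. Gene positions came from GENCODE v29. The members and gene lists were chosen with earlier results of these data known. Named were, within each complex, the genes with the largest rises and falls past the threshold, every member off the grid, SDHB, UQCRC2, ATP5F1A and the c-subunit genes. In each other list these were up to 3 genes in each direction, and the remaining genes are named only with their values. Alternatives changed the pseudocount, filter, scaling, moderation, threshold, replicate block and samples.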

Additional observations from a re-analysis of the deposited data

How the results depend on the processing

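Of the 31 members past the threshold as deposited, 23 kept their call in all 15 settings that used deposited values. Of the 23, those on the grid were UQCRB, UQCRH, COX7B, COX8A, ATP5F1B, ATP5MD and ATP5IF1. The others are off the grid and carried their constant in each of these settings. Among them UQCRC1, UQCRFS1, UQCRQ, NDUFA4, ATP5PO and ATP5ME lost their call once it was subtracted. Leaving out the rows off the grid reduced the members called higher from 25 to 10, because 15 of the 25 were themselves left out. The 10 on the grid kept their call. The median log2 fold change of all members (0.39) was 0.43 under quantile normalization, 0.44 with an equal sum without mitochondrially encoded genes, 0.24 with constants subtracted and −0.013 with rows off the grid left out, and 0.32 to 0.49 with a single sample left out. The median of members on the grid (−0.013) was 0.045 under quantile normalization, 0.036 with the equal sum and −0.029 to 0.032 with 1 sample left out. For complex IV on the grid (0.27) these were 0.38, 0.32 and 0.21 to 0.29, and for complex V on the grid (−0.025) the equal sum gave 0.023. The direction turned only in members that had not passed. COX4I1 gave 0.13 under quantile normalization and 0.036 under the equal sum, and ATP5PD gave 0.023 under the latter. With 1 sample left out, the values crossed 0 in SDHA (−0.12 to 0.0027), UQCR10 (−0.12 to 0.0088), UQCR11 (−0.20 to 0.020), CYCS (−0.19 to 0.032), COX4I1 (−0.060 to 0.025), COX6B1 (−0.041 to 0.084), ATP5PD (−0.052 to 0.0085), ATP5MC2 (−0.16 to 0.00027) and ATP5MG (−0.10 to 0.0064). UQCR11 passed without adapted replicate 1 (−0.20, adjusted p = 0.0466). Without the filter on low values, 6 members lost their call (SDHD, COX5B, COX7A2, ATP5F1D, ATP5MC1 and ATP5MF), and at a threshold of 0.01, 7 members did. The cause of these changes was not tested. Deviations of same-numbered samples from their group means correlated at −0.051, −0.031 and −0.020, and no sample correlated best with its own number. With the number as a replicate block, 25 members were higher and 6 lower, with each of the 44 calls unchanged.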
